A study of Mus musculus with 6 samples.

Results

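The 10 genes described here are markers of the alveolar type I cell: Cav1, Cav2, Ager, Pdpn, Emp2, Hopx, Aqp5, Clic5, Rtkn2 and Akap5. They were taken by symbol from a table of 46078 mouse genes, and each was present once by gene identifier. Libraries of messenger RNA came from 6 monolayers of MLE12, a mouse lung epithelial line that has been immortalized. Of these, 4 carried the genotype labels Lingo1 KO, Lingo2 KO, Lingo3 KO or TROY KO and were collected 24 hours after a pipet tip had been drawn through the cell layer. Another was the parental line, labelled wild-type, collected 24 hours after the same scratch, and the last was the parental line left unscratched. Each group was 1 library, so no difference between groups could be held against replicate error and no p-value is given. Neither the number of clones behind a knockout line nor the way the knockouts were made is given in the sources used here. MLE12 itself was derived from lung tumours of mice that express a simian virus large T antigen under a surfactant protein C promoter, and is used as a model of the alveolar type II cell rather than of the type I cell.

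Type I cells are thin, flat cells that cover most of the gas exchange surface of the lung. They lie against the capillaries and carry many caveolae, flask-shaped pits of the cell membrane. The cuboidal type II cells beside them secrete surfactant, divide after injury and can turn into type I cells, losing surfactant proteins and gaining the genes described here as they flatten. LINGO1 is a membrane protein with leucine-rich repeats that, with the tumour necrosis factor receptor family member TROY, forms part of a receptor complex on neurons that limits axon growth.

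The libraries held between 28109825 and 30776294 counts in genes. Reads in no gene were taken as a share of the reads in genes, in no gene or ambiguous, with reads of more than 1 alignment left out. This share was 5.44%, 6.41%, 4.98% and 6.20% in the libraries labelled Lingo1, Lingo2, Lingo3 and TROY knockout. It was higher in the parental libraries, at 8.02% scratched and 7.80% unscratched. The TMM scaling factors also split by label, at 0.986, 0.989, 0.991 and 0.983 in the same 4, against 1.04 scratched and 1.02 unscratched. The part of this split in the values of the genes described here was not tested. Lingo1 stood at 57.0, 52.0, 51.3 and 34.7 counts per 1000000 counts in genes after scaling (CPM) in the libraries labelled Lingo1, Lingo2, Lingo3 and TROY knockout, against 24.5 CPM in the scratched and 27.6 CPM in the unscratched parental library, so its transcript did not show the Lingo1 label. Lingo2 had 0 counts in every library, Lingo3 had 1 count in all, and Tnfrsf19, the gene of TROY, had 0 to 4 counts. The genotypes could therefore not be checked from these counts, and the libraries are called the Lingo1, Lingo2, Lingo3 and TROY libraries after their labels. The 4 were each set against the scratched parental library, and that library is also one side of the scratch comparison, so these 5 comparisons are not independent of each other.

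The 10 genes spanned nearly the whole range of expression in these cells. Levels can be compared between genes only per length, on the values of the authors' table. These were taken as RPKM (reads per kilobase of transcript and 1000000 reads), a unit the table does not name. Cav1, the structural protein without which caveolae do not form, ranked first of the 10 in every library, with 1065, 1100, 1210 and 982 RPKM in the Lingo1, Lingo2, Lingo3 and TROY libraries, against 730 and 803 RPKM in the scratched and unscratched parental libraries. Between 99.8% and 99.9% of the rows listed by the authors lay below it. Cav2, Ager, Pdpn, Emp2, Hopx and Aqp5 followed between 74.1 and 279 RPKM, and several of them changed places from library to library. Cav2 and Ager were close, at 242 and 246 RPKM in the Lingo2 library, Emp2 crossed both Pdpn and Hopx, and Pdpn stayed above Hopx in every library. Aqp5 stood above Hopx in the Lingo3 library and below it in the other 5. Clic5 (15.2 to 23.2 RPKM), Rtkn2 (2.63 to 3.72 RPKM) and Akap5 (0.07 to 0.25 RPKM) were the last 3 in that order in every library.

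**Figure D1:**
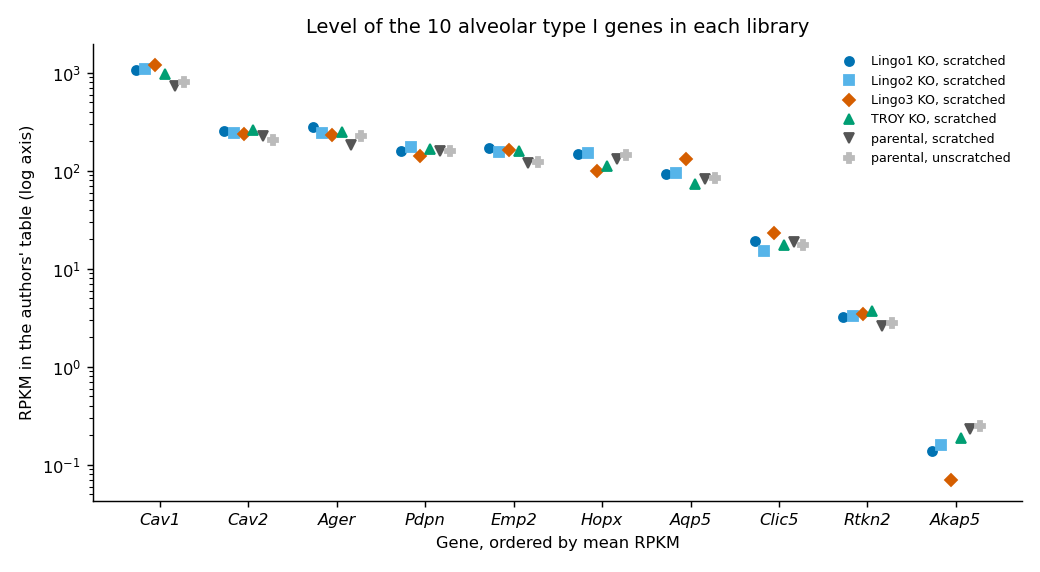
RPKM of the 10 genes from the authors' table on a log axis, with 1 point per library and genes in the order of their mean. Cav1 lies above the other 9 in every library, and Clic5, Rtkn2 and Akap5 lie below the other 7.

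The label of the gene list was then held against other genes that mark type I cells. Of 20 further type I genes, 15 averaged at least 1 CPM over the 6 libraries, the level used here for a gene to be counted as tested, which 12078 genes reached. Some of the 20 were at or near 0: Cldn18, a tight junction protein, had 0 to 4 counts, Cyp2b10 had 0 to 5, Sec14l3 had at most 1 and Mal2 had 0 in each library. Defining type II genes were also near 0, with at most 3 counts in any library for Sftpa1, Sftpd, Lamp3 and Slc34a2, although Sftpb, Sftpc, Abca3 and others of the 11 were read and 7 were tested. Some genes that mark cell types outside the alveolar epithelium were high in the same libraries. Upk3b, a mesothelial marker, lay between 431 and 612 RPKM, Msln, another, between 135 and 197 RPKM, and Dcn, a fibroblast proteoglycan, between 536 and 696 RPKM (all 3 chosen after their values were seen). Others of the same lists were low: Lum had at most 1 count, Col1a2 at most 3 and the lymphatic gene Lyve1 at most 4 in any library, Prox1 had 1 to 12, and Col3a1 had 62 in the Lingo3 library and at most 3 elsewhere. High levels of Cav1, Ager or Pdpn in these libraries thus stood beside missing type I and type II genes, and the 10 are called here by their list and not as a sign of the cell type. Cav1, Cav2, Pdpn and Emp2 are also known from cells other than type I cells.

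**Figure D2:**
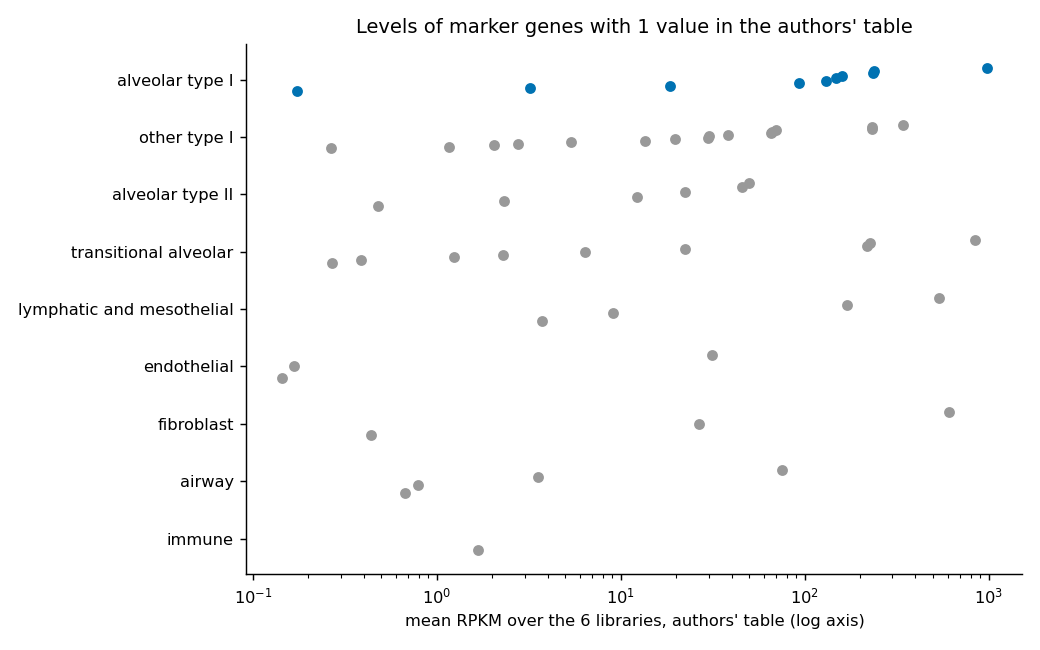
Mean RPKM over the 6 libraries, on a log axis, of each marker gene with a single value in the authors' table, by cell type list. The highest alveolar type I gene, Cav1, averages 981 RPKM, and the highest transitional, fibroblast and mesothelial genes average 846, 610 and 538 RPKM.

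For each comparison the ratio of scaled counts was taken with an exact 95% Clopper-Pearson interval, which covers counting error only and not the spread between cultures. A gene was called past the size rule when the ratio was at least 2-fold in either direction and the bound nearest to 1 lay beyond 1.5-fold. None of the 10 genes passed it between the scratched and unscratched parental libraries, where 0.0828% of tested genes did. None passed it in the Lingo1 library (3.62% of tested genes), the Lingo2 library (3.5%) or the TROY library (2.24%) against the scratched parental library. Akap5 passed it in the Lingo3 library, where 7.19% of tested genes did so in either direction and 2.56% were lower. Akap5 averaged 1 CPM only through the parental libraries, where it was highest, so this call adds no support. Over the 5 comparisons 1 of the 10 genes was called at least once, against 998 of 12078 tested genes (8.26%), a share near the background. With a looser rule, a ratio of at least 1.5-fold with an interval beyond 1, Ager passed in the Lingo1 library (11.7% of tested genes), Cav1 in the Lingo2 library (11.5%), and Cav1, Aqp5 and, downward, Akap5 in the Lingo3 library (19.3%), and none of the 10 passed in the TROY library (9.09%) or between the parental libraries (0.985%). Against the unscratched parental library, none passed the size rule in the Lingo1 (3.17% of tested genes), Lingo2 (2.95%) or TROY library (2.25%), and Akap5 passed in the Lingo3 library (6.85%). Calls of genes from other lists, named below, are to be read against the same shares of tested genes.

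With 1 library per group, another way to read the values is by whether the 4 knockout-labelled libraries all lay on one side of both parental libraries, a count chosen after the values were seen. Of the 10 genes, 5 lay above in all 4 (Cav1, Cav2, Ager, Emp2 and Rtkn2), where 24.2% of tested genes did. Akap5 lay below in all 4, where 21.9% of tested genes did, and Hopx, Aqp5, Pdpn and Clic5 overlapped. Akap5 was tested only through its parental values, so its place below them adds no support. Non-overlap in either direction was seen in 46.1% of tested genes, and the 6 of 10 are to be read against that share. Reads in no gene were also a smaller share in all 4 than in both parental libraries, and the part of that difference in these counts was not tested. The median log2 ratio of the 10 genes to the scratched parental library was 0.18 in the Lingo1, 0.24 in the Lingo2, 0.34 in the Lingo3 and 0.15 in the TROY library, where the median of all tested genes was 0.010, 0.022, 0.0070 and 0.020. In the scratch comparison it was -0.087, against -0.012 for all tested genes. Because these are whole cultures, fewer cells expressing a gene and less RNA per cell cannot be told apart.

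**Figure D3:**
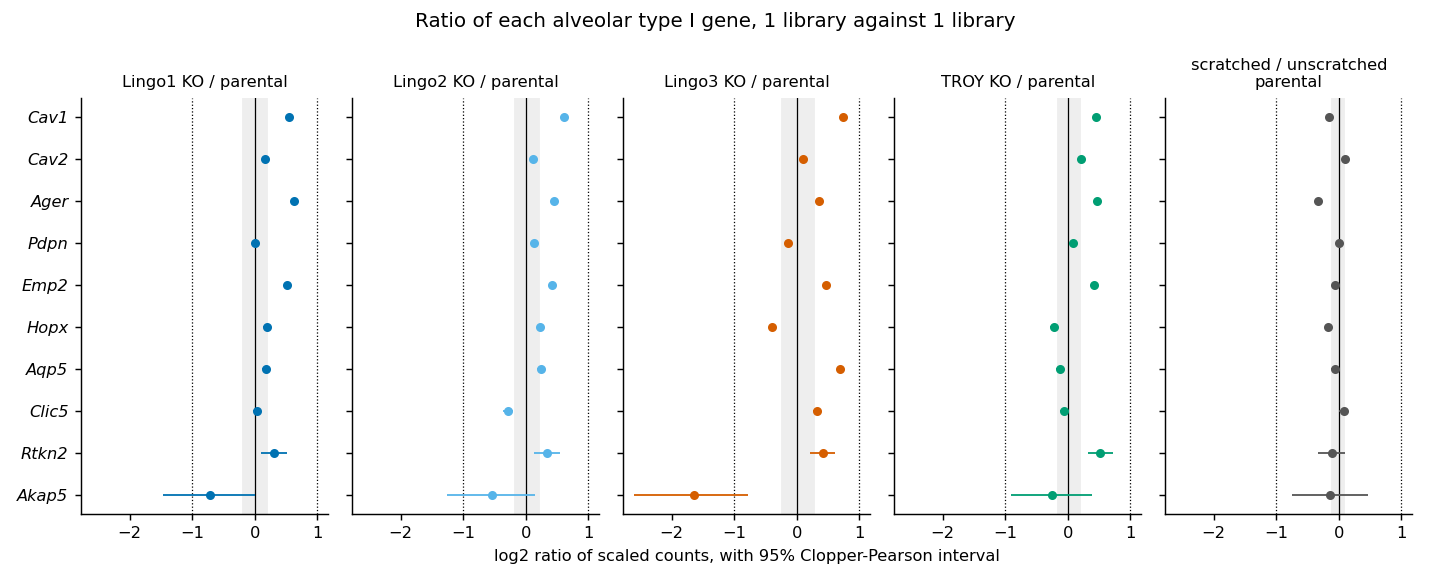
Log2 ratio of scaled counts for each gene in the 5 comparisons, with the exact 95% interval for counting error as a bar; the dotted lines mark 2-fold and the grey band holds the middle 50% of tested genes. Cav1, Ager, Emp2 and Rtkn2 lie right of the band in all 4 knockout-labelled libraries, and Akap5 in the Lingo3 library is the point beyond a dotted line.

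The caveolins come first, as the genes of caveolae. Cav1 stood at 2958, 3073, 3366 and 2749 CPM in the Lingo1, Lingo2, Lingo3 and TROY libraries, against 2015 CPM in the scratched and 2236 CPM in the unscratched parental library. The parental libraries were the lowest 2 of the 6 and the Lingo3 library was the highest. The ratios to the scratched parental library were 1.47 (1.45 to 1.48), 1.52 (1.51 to 1.54), 1.67 (1.65 to 1.69) and 1.36 (1.35 to 1.38), and those to the unscratched one were 1.32, 1.37, 1.51 and 1.23. Cav1 did not reach 2-fold in any of them. Its spread over the 6 libraries, the highest CPM over the lowest, was 1.67 and exceeded that of 86.5% of 10770 genes averaging 100 counts or more, whose median was 1.30.

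Cav2, the partner that needs CAV1 to reach the cell surface, is encoded next to it, with 17219 bases between the end of Cav2 (chr6:17281185-17289115, plus strand, GRCm38) and the start of Cav1 (chr6:17306335-17341452, plus strand). Cav2 stood at 701, 673, 665 and 720 CPM in the Lingo1, Lingo2, Lingo3 and TROY libraries, against 622 CPM in the scratched and 578 CPM in the unscratched parental library. The ratios to the scratched parental library were 1.13, 1.08, 1.07 and 1.16, closer to 1 than those of Cav1. The neighbours did not keep one proportion. Cav1 RPKM was 4.20, 4.54, 5.04 and 3.80 times Cav2 RPKM in the Lingo1, Lingo2, Lingo3 and TROY libraries, against 3.22 times in the scratched and 3.85 times in the unscratched parental library. The Lingo3 library held the highest Cav1 level but the lowest Cav2 level of the 4, and the TROY library held the reverse. Between the parental libraries the pair also went opposite ways, with Cav1 at 0.901 (0.891 to 0.911) and Cav2 at 1.08 (1.05 to 1.10) in the scratched library relative to the unscratched one.

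The promoters of Cav1, Cav2 and Emp2, members whose 4 knockout-labelled libraries lay above both parental libraries, are shown so that their letters can be set side by side; this choice was made after the values were seen. Each is the RefSeq window of 250 bases before to 50 after a start of the gene on GRCm38.p6, written 5′ to 3′ on the strand of the gene. Cav1 is at chr6:17306085-17306384 on the plus strand and is the first of its 2 listed starts, Cav2 at chr6:17280935-17281234 on the plus strand, and Emp2 at chr16:10313919-10314218 on the minus strand. Capitals mark every match, on either strand, to the GC box GGGCGG, the AP-1 motif TGANTCA, the TEAD motif GGAATG or the NKX2-1 motif CACTNNAG.
Cav1: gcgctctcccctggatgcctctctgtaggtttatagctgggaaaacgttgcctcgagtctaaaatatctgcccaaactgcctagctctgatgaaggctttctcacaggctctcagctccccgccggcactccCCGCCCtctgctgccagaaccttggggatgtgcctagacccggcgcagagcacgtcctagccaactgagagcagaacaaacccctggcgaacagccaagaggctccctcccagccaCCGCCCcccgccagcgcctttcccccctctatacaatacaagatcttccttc
Cav2: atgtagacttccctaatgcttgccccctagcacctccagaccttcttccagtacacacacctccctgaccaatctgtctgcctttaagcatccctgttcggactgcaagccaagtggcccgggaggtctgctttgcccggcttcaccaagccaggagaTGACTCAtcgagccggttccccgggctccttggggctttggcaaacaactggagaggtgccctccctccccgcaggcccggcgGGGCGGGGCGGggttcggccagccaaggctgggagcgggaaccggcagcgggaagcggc
Emp2: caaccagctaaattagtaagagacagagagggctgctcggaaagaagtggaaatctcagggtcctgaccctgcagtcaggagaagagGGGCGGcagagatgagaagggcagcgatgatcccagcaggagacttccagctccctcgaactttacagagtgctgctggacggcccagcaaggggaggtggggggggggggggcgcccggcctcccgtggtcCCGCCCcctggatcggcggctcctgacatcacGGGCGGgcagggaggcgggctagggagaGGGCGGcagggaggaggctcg
Cav1 held 2 GC boxes, both on the opposite strand, and none of the other 3 motifs. Cav2 held 2 GC boxes that share a base and 1 AP-1 match, and Emp2 held 4 GC boxes. A GC box was found in 35.7% of the 32851 windows of the table, an AP-1 match in 7.81%, a TEAD match in 14.7% and an NKX2-1 match in 16.0%. The GC content was 59.3%, 64.3% and 65.7% in the 3 windows, against a median of 52.7% over all windows. Of the 10 genes, 9 had a window. The Ager window (GC content 58.3%) and the window at the second start of Cav1 (62.3%) are not printed and held no match to any of the 4 motifs. GC boxes were also found in Akap5 (3), which lay below, and in Aqp5 (3), Clic5 (2) and Pdpn (2), which overlapped. Neither Hopx window held one. GC boxes were thus not particular to the members that lay above. These matches describe letters and were not tested as sites.

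The other genes of caveolae were measured beside them. Of a list of 9 that includes both caveolins, 7 were tested and none passed the size rule in any of the 5 comparisons, while the muscle genes Cav3 and Cavin4 had at most 4 counts in any library. Cavin1, the coat protein needed for caveolae, stood at 711, 705, 756 and 681 CPM in the Lingo1, Lingo2, Lingo3 and TROY libraries, against 529 and 636 CPM in the scratched and unscratched parental libraries. Ehd2, an ATPase at the neck of caveolae, stood at 538, 495, 519 and 492 CPM in the same 4, against 391 and 425 CPM in the scratched and unscratched parental libraries. Both had the 2 parental libraries lowest, as Cav1, Pacsin2 and 24.2% of tested genes had. Cavin3 overlapped, at 80.2, 77.2, 62.3 and 70.4 CPM in the same 4, against 69.6 and 75.8 CPM in the scratched and unscratched parental libraries. Cavin2, which shapes the caveolar membrane, lay below both parental libraries in all 4, where 21.9% of tested genes did. It stood at 874, 768, 633 and 854 CPM in the Lingo1, Lingo2, Lingo3 and TROY libraries, against 893 and 961 CPM in the scratched and unscratched parental libraries. Its lowest ratio to the scratched parental library, 0.708 (0.695 to 0.722), was in the Lingo3 library, in which Cav1 was highest.

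**Figure D4:**
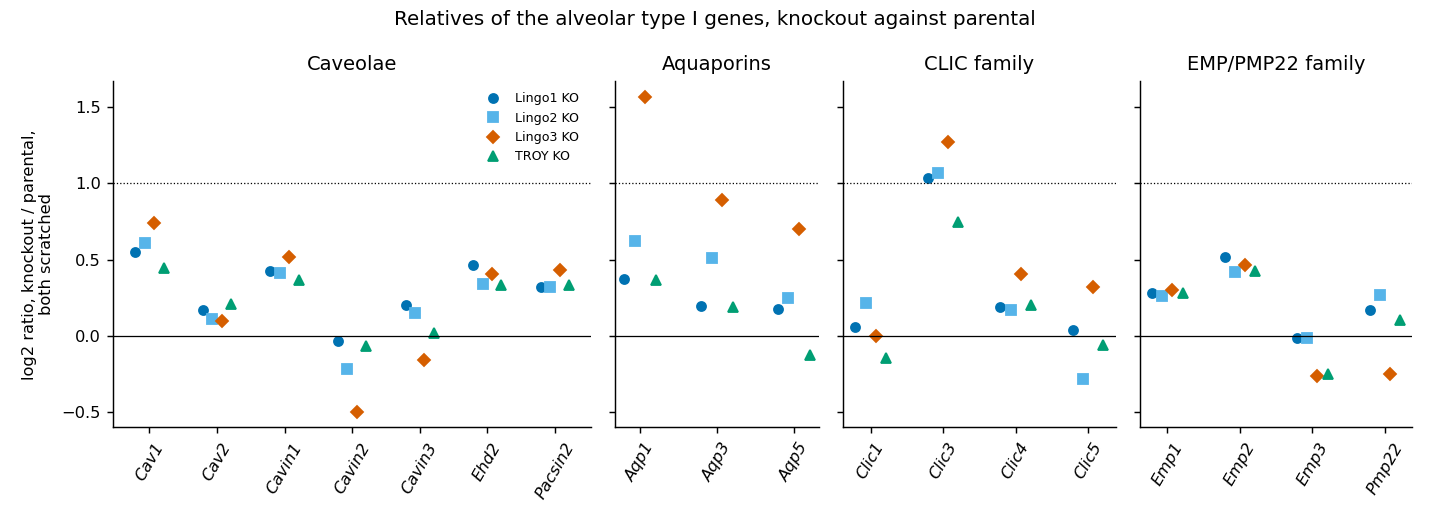
Log2 ratio to the scratched parental library of the tested caveola, aquaporin, CLIC and EMP/PMP22 genes, with 1 point per knockout-labelled library and the dotted line at 2-fold. Aqp1 in the Lingo3 library and Clic3 in the Lingo1, Lingo2 and Lingo3 libraries lie above the line, and Cavin2 lies below 0 in all 4.

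Ager encodes RAGE, a receptor of the immunoglobulin superfamily that in the healthy lung is concentrated on type I cells (chr17:34597862-34600936, plus strand). It stood at 529, 469, 438 and 477 CPM in the Lingo1, Lingo2, Lingo3 and TROY libraries, against 343 CPM in the scratched and 433 CPM in the unscratched parental library. The scratched parental library was the lowest, and the Lingo3 library lay just above the unscratched one. The ratios to the scratched parental library were 1.54 (1.51 to 1.58), 1.37, 1.28 and 1.39, but those to the unscratched library were 1.22, 1.08, 1.01 (0.987 to 1.04) and 1.10. With the unscratched library as the control the Lingo3 interval held 1, so the separation of Ager from both parental libraries could not be shown there at this depth. Scratched against unscratched, the ratio was 0.792 (0.772 to 0.813), further from 1 on the log2 scale than that of 93.6% of tested genes and the furthest of the 10. Of 5 genes for RAGE ligands and its sheddase, Hmgb1, S100b and Adam10 were tested and none passed the size rule in any of the 5 comparisons. The ligand genes S100a8 and S100a9 had at most 1 count in any library.

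The scratched parental library also differed from the other 5 in some endothelial transcripts. It held 169 counts of Vwf, 74 of Kdr, 20 of Cdh5 and 11 of Cldn5, where no other library held more than 37, 21, 1 and 1. Pecam1, on the same list, did not share this, with 9, 10, 15 and 4 counts in the Lingo1, Lingo2, Lingo3 and TROY libraries, against 8 and 9 in the scratched and unscratched parental libraries. Of the 7 endothelial genes 2 were tested. Vwf, which averaged 1 CPM only through the scratched parental library, passed the size rule in all 5 comparisons, upward in the scratch comparison and downward in the other 4. That library is 1 side of each comparison, so the Vwf calls add no support. Tek passed upward in the Lingo1 and Lingo3 libraries at 2.14 (2.04 to 2.24) and 2.15 (2.05 to 2.25) times the scratched parental level. Emcn had at most 1 count in any library, and the summed level of the list was 162 to 188 CPM in the knockout-labelled libraries, against 95.7 and 103 CPM in the scratched and unscratched parental libraries, most of it Tek. The part of these transcripts in the values against the scratched library was not tested. Without that library, with the unscratched parental library as the control, the same 5 genes lay above it in all 4 libraries and Akap5 lay below, where 30% of tested genes lay above and 30% below.

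Pdpn encodes podoplanin, a mucin-like membrane protein that links to the actin skeleton through ezrin and related proteins (chr4:143267431-143299564, minus strand). It stood at 292, 320, 263 and 308 CPM in the Lingo1, Lingo2, Lingo3 and TROY libraries, against 291 CPM in the scratched and 292 CPM in the unscratched parental library. The knockout-labelled libraries lay on both sides of the parental ones, which were level with each other at a ratio of 0.998 (0.968 to 1.03). The lowest ratio to the scratched parental library was 0.905 (0.878 to 0.933) in the Lingo3 library and the highest was 1.10 (1.07 to 1.13) in the Lingo2 library. Its spread of 1.22 and that of Cav2, 1.24, were the 2 below the median of 1.30 among the 9 members with enough counts to be ranked. Of 6 genes listed as podoplanin partners, 5 were tested and Cd44, a hyaluronan receptor, passed the size rule in the Lingo3 library. Cd44 stood at 92.0, 99.8, 124 and 91.6 CPM in the Lingo1, Lingo2, Lingo3 and TROY libraries, against 53.4 and 48.0 CPM in the scratched and unscratched parental libraries, and its ratio of 2.31 (2.18 to 2.45) in the Lingo3 library was the one called.

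Emp2 is a membrane protein with 4 spans of the PMP22 family that is abundant in type I cells (chr16:10281749-10313968, minus strand). It stood at 900, 843, 868 and 846 CPM in the Lingo1, Lingo2, Lingo3 and TROY libraries, against 630 CPM in the scratched and 656 CPM in the unscratched parental library. The 4 were close together and apart from both parental libraries. The ratios to the scratched parental library were 1.43 (1.40 to 1.46), 1.34, 1.38 and 1.34, and those to the unscratched one were 1.37, 1.29, 1.32 and 1.29. All 4 family genes were tested and none was called in any of the 5 comparisons. Emp1 also had its parental libraries lowest, as 24.2% of tested genes had. Its ratios were 1.22, 1.20, 1.23 and 1.22 in the Lingo1, Lingo2, Lingo3 and TROY libraries, whereas Emp3 had ratios of 0.989, 0.991, 0.834 and 0.839. Pmp22 was at 0.841 (0.811 to 0.872) in the Lingo3 library and between 1.07 and 1.20 in the others.

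**Figure D5:**
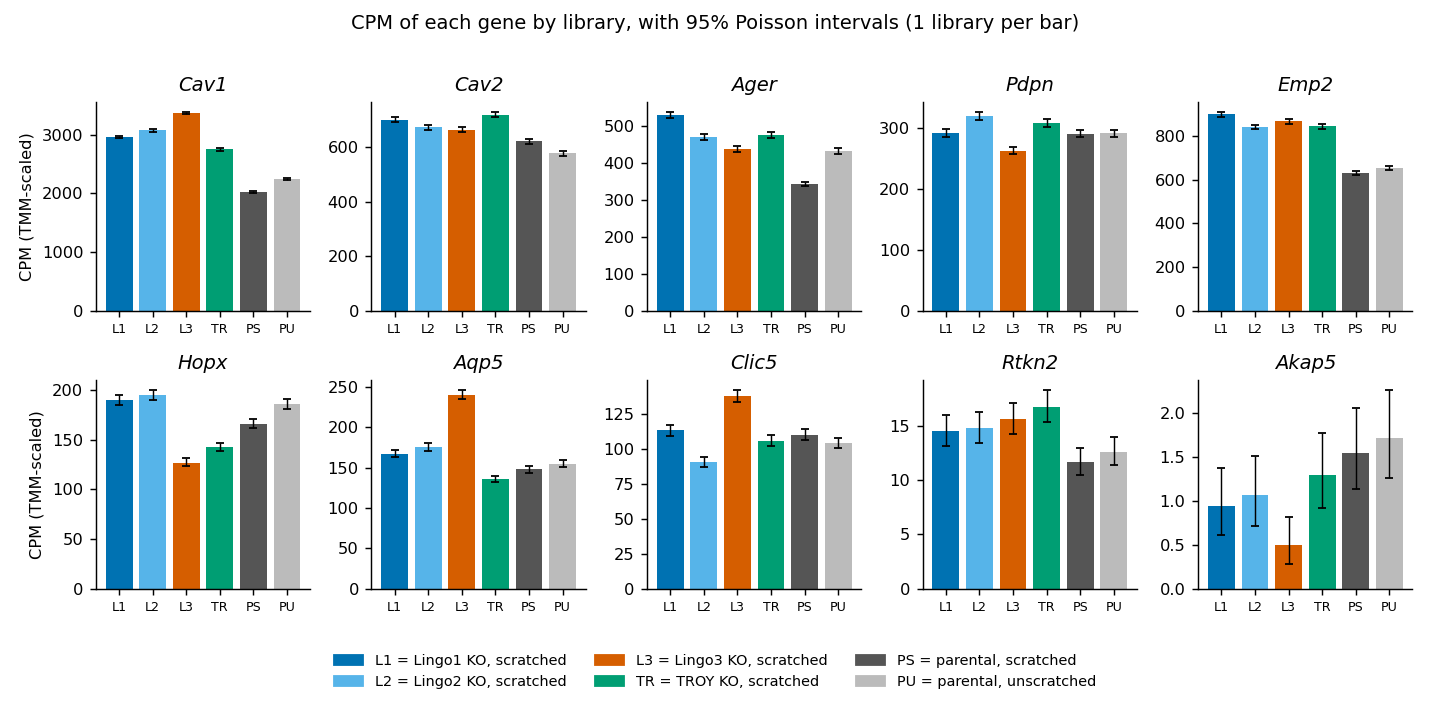
CPM of each of the 10 genes by library, with bars from 0, 1 library per bar and 95% Poisson intervals for counting error. The parental libraries are the lowest 2 for Cav1, Cav2, Ager, Emp2 and Rtkn2 and the highest 2 for Akap5, and the Lingo3 library is the highest for Aqp5 and Clic5 and the lowest for Hopx and Pdpn.

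Hopx, a small homeodomain protein that does not bind DNA itself, marks type I cells early in their formation (chr5:77086988-77115121, minus strand). It stood at 190, 195, 127 and 143 CPM in the Lingo1, Lingo2, Lingo3 and TROY libraries, against 166 CPM in the scratched and 186 CPM in the unscratched parental library. The Lingo1 and Lingo2 libraries lay above both parental libraries and the Lingo3 and TROY libraries below both. The ratios to the scratched parental library were 1.14 (1.10 to 1.19), 1.17 (1.13 to 1.22), 0.765 (0.733 to 0.797) and 0.859 (0.824 to 0.895). Against the unscratched library the Lingo1 ratio was 1.02 (0.982 to 1.06), the Lingo2 ratio 1.05 (1.01 to 1.09), the Lingo3 ratio 0.682 and the TROY ratio 0.766. Scratched against unscratched, Hopx was at 0.892 (0.859 to 0.928). Hopxos, which overlaps Hopx on the other strand, had 6 to 14 counts, and whether reads were counted by strand is not given in the sources used here. None of 12 lineage transcription factors on the list passed the size rule in any of the 5 comparisons.

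Aqp5 (chr15:99590782-99594829, plus strand), a water channel of the apical membrane, had the widest spread of the 9 members that could be ranked. It stood at 167, 176, 240 and 136 CPM in the Lingo1, Lingo2, Lingo3 and TROY libraries, against 148 CPM in the scratched and 155 CPM in the unscratched parental library. The Lingo3 library stood apart at the top, and the TROY library was the lowest of the 6. The ratio to the scratched parental library was 1.62 (1.57 to 1.69) in the Lingo3 library and 0.917 (0.879 to 0.957) in the TROY library. The highest CPM was 1.77 times the lowest, a wider spread than that of 89.1% of the genes ranked. Of 11 aquaporin genes 3 were tested, and Aqp1, the water channel known from endothelium, rose past the size rule in the Lingo3 library. Aqp1 stood at 66.7, 79.4, 153 and 66.5 CPM in the Lingo1, Lingo2, Lingo3 and TROY libraries, against 51.5 and 57.9 CPM in the scratched and unscratched parental libraries, a ratio of 2.97 (2.80 to 3.14) in the Lingo3 library. Aqp3 also had its highest level in the Lingo3 library, at 5.61 CPM, against 3.02 and 1.99 CPM in the scratched and unscratched parental libraries, with a ratio of 1.85 (1.43 to 2.42) to the scratched one that did not pass.

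Clic5 (chr17:44188584-44280172, plus strand), a protein of the chloride intracellular channel family that associates with ezrin at the cell cortex, stood at 113, 90.6, 138 and 106 CPM in the Lingo1, Lingo2, Lingo3 and TROY libraries, against 110 CPM in the scratched and 104 CPM in the unscratched parental library. The Lingo3 library was the highest and the Lingo2 library the lowest, with the parental libraries between them. The ratio to the scratched parental library was 1.25 (1.19 to 1.31) in the Lingo3 library and 0.823 (0.782 to 0.867) in the Lingo2 library. Of 5 genes of the family 4 were tested. Clic3 rose past the size rule in the Lingo1, Lingo2 and Lingo3 libraries, at ratios of 2.05 (1.91 to 2.20), 2.09 (1.96 to 2.24) and 2.41 (2.26 to 2.58), and had a ratio of 1.68 (1.56 to 1.80) in the TROY library. Its levels were 86.7, 88.5, 102 and 70.9 CPM in the Lingo1, Lingo2, Lingo3 and TROY libraries, against 42.3 and 42.0 CPM in the scratched and unscratched parental libraries. Clic4 had ratios of 1.14, 1.13, 1.33 and 1.15 in the same 4 libraries, and Clic1 stayed between 0.904 and 1.16.

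Rtkn2 encodes rhotekin 2, named for its likeness to rhotekin (chr10:67979570-68059740, plus strand). It stood at 14.5, 14.8, 15.6 and 16.8 CPM in the Lingo1, Lingo2, Lingo3 and TROY libraries, against 11.7 CPM in the scratched and 12.6 CPM in the unscratched parental library. The TROY library was the highest, and the parental libraries were the lowest 2. The ratios to the scratched parental library were 1.24 (1.07 to 1.43), 1.26 (1.09 to 1.46), 1.34 (1.16 to 1.54) and 1.43 (1.25 to 1.65), with wide intervals from a mean of 420 counts per library. Against the unscratched library the Lingo1 interval, 0.994 to 1.33, held 1. Of 7 genes listed with rhotekin and RhoA, all were tested and Rhob, a small GTPase, rose past the size rule in the Lingo1, Lingo2 and Lingo3 libraries at 2.08, 2.09 and 2.75 times the scratched parental level. It had a ratio of 1.88 (1.73 to 2.04) in the TROY library.

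Akap5 (chr12:76324891-76334153, plus strand), which anchors protein kinase A and calcineurin near the membrane, was the rarest of the 10, with 26, 30, 15 and 39 counts in the Lingo1, Lingo2, Lingo3 and TROY libraries, against 47 counts in the scratched and 49 in the unscratched parental library. These counts correspond to 0.939, 1.06, 0.492 and 1.30 CPM in the Lingo1, Lingo2, Lingo3 and TROY libraries, against 1.55 and 1.71 CPM in the scratched and unscratched parental libraries. The parental libraries were the highest 2 and the Lingo3 library the lowest, and the Lingo1 and Lingo3 libraries lay below the 1 CPM that the mean had to reach. In the Lingo3 library Akap5 fell to 0.318 of the scratched parental level (0.165 to 0.580), a 3.14-fold lower level, and to 0.288 (0.150 to 0.522) of the unscratched one. In the Lingo1, Lingo2 and TROY libraries the ratios to the scratched library were 0.607 (0.361 to 1.001), 0.687 (0.419 to 1.11) and 0.839 (0.534 to 1.31). The only call among the 10 genes therefore rests on a gene with 15 and 47 counts, read in 2 libraries, and it is not counted when a mean of at least 5 CPM is asked for. Akap5 averaged 1 CPM only through the parental libraries, where it was highest, so its call and its place below them add no support. Of 8 genes listed as AKAP5 partners, all tested, Prkar2b, a regulatory subunit of protein kinase A, passed in the Lingo3 library at a ratio of 2.04 (1.64 to 2.54).

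The 4 knockout-labelled libraries were then set against one another in 6 pairs, and none of the 10 genes passed the size rule in any. Of tested genes, 0.0166% passed between the Lingo1 and Lingo2 libraries, 1.65% between Lingo1 and Lingo3, 0.215% between Lingo1 and TROY, 1.61% between Lingo2 and Lingo3, 0.364% between Lingo2 and TROY, and 2.61% between Lingo3 and TROY. Among the 9 genes with at least 5 CPM the widest gap was in Aqp5, at 1.77 times the TROY level in the Lingo3 library. Hopx in the Lingo2 library was 1.53 times its Lingo3 level, and Clic5 in the Lingo3 library was 1.52 times its Lingo2 level. Akap5 in the Lingo3 library was at 0.380 (0.194 to 0.704) of its TROY level, and its level in the Lingo2 library was 2.16 (1.12 to 4.31) times that in the Lingo3 library, both beyond 2-fold but with a bound within 1.5-fold. The summed level of the 10 genes was 5866, 5855, 6121 and 5502 CPM in the Lingo1, Lingo2, Lingo3 and TROY libraries, against 4339 and 4654 CPM in the scratched and unscratched parental libraries. Cav1 alone held 48.6% to 53.9% of the summed RPKM in the knockout-labelled libraries, against 44.2% and 45.3% in the scratched and unscratched parental libraries.

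The further type I genes were counted in the same way. Of the 15 tested, none passed the size rule in the scratch comparison or in the Lingo1, Lingo2 or TROY library, and in the Lingo3 library 3 were higher and 1 was lower, where 7.19% of tested genes passed in either direction and 2.56% were lower. Igfbp2, a secreted binder of insulin-like growth factors, was at 4.43 (3.20 to 6.27), Spock2, a matrix proteoglycan, at 4.23 (3.97 to 4.51) and Timp3, a protease inhibitor, at 2.17 (2.11 to 2.24) times the scratched parental level. The axon guidance ligand Sema3a fell to 0.349 (0.336 to 0.364) of that level. The median log2 ratio of the list was 0.16, 0.069, 0.0096 and 0.068 in the Lingo1, Lingo2, Lingo3 and TROY libraries and -0.091 in the scratch comparison. Its summed level of 5954 to 6605 CPM in the knockout-labelled libraries overlapped that of the parental libraries, 6307 CPM scratched and 6877 CPM unscratched, and the unscratched parental library was the highest of the 6.

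Markers of other cells and states were counted over the same libraries. Of tested genes, 3.62%, 3.5%, 7.19% and 2.24% passed the size rule in the Lingo1, Lingo2, Lingo3 and TROY libraries. The share of tested genes passing in all 4 is not given here, and the 4 comparisons share 1 control library. Of 11 type II genes, 7 tested, Sftpb passed upward in all 4 libraries at 4.60, 4.06, 4.61 and 2.44 times the scratched parental level, Sftpc passed in the Lingo1, Lingo2 and Lingo3 libraries at 2.22, 2.29 and 4.47, Napsa in the Lingo3 library at 3.46, and Cxcl15 was lower in all 4. Cxcl15 had 15, 26, 18 and 13 counts in the Lingo1, Lingo2, Lingo3 and TROY libraries, against 67 and 43 in the scratched and unscratched parental libraries, and it averaged 1 CPM only through the parental libraries, so its calls add no support. Sftpb and Sftpc encode surfactant proteins, Napsa a protease that processes them and Cxcl15 a chemokine made in the lung. Of 10 genes of the transitional state between the alveolar types, 8 tested, Cdkn1a and Areg passed upward in all 4 libraries and Hbegf in the Lingo1 and Lingo2 libraries. Krt8, Krt19, Sfn, Lgals3 and Itgb6 were tested and passed in none. Krt18 had 9 to 14 counts and Cldn4 at most 1 in any library. Of 6 airway genes, 4 tested, Trp63 and Krt14 passed upward in all 4 libraries and Tppp3 in all but the TROY library. Trp63 stood at 0.855 and 1.12 CPM in the scratched and unscratched parental libraries. It averaged 1 CPM only through the knockout-labelled libraries, where it was highest, so its calls add no support. Krt5 was at 0 in every library. The summed airway level was 136 to 229 CPM, against 47.4 and 54.4 CPM in the scratched and unscratched parental libraries. Most of it was Krt14 in the Lingo1, Lingo2 and TROY libraries, at 175, 179 and 127 CPM. Krt14 stood at 43.4 and 49.1 CPM in the scratched and unscratched parental libraries. Of 7 fibroblast genes, 4 tested, Col1a1 and Pdgfrb passed upward in all 4 libraries and Pdgfra in the Lingo3 library. Pdgfrb had 52, 37, 348 and 13 counts in the Lingo1, Lingo2, Lingo3 and TROY libraries, against 1 and 3 in the scratched and unscratched parental libraries, and it averaged 1 CPM only through the Lingo3 library, so its calls add no support. The fibroblast list had a summed level of 2745 to 3462 CPM, against 2578 and 2824 CPM in the scratched and unscratched parental libraries. Of 6 lymphatic and mesothelial genes, 4 tested, Lrrn4 passed upward in the Lingo1, Lingo2 and Lingo3 libraries, and the summed level was 1967 to 2660 CPM, against 2186 and 2344 CPM in the scratched and unscratched parental libraries. Of 5 immune genes 1 was tested and none passed. The part of these other genes in the values of the 10 was not tested.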

How the data were processed

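RNA from 6 MLE12 cultures was sequenced, 1 library per group, so every comparison is of 1 library with 1 library. The authors deposited raw read counts per Ensembl gene, with HTSeq summary lines that were left out of the library sizes, and a second table of expression values per gene with their own log2 ratios. The unit of those values is not named in the file header. They were taken as RPKM. Over 7630 genes, their ratios between libraries matched the count ratios to an SD of 0.000971 on the log2 scale after 1 factor per library. That match cannot show a division by length, which cancels between libraries. CPM over these values implied a length of 1278 bases for Hopx and 5942 bases for Clic5, so the values were not scaled by depth alone. Whether implied lengths match transcript lengths was not tested. The authors' table repeats 169 rows, and a gene whose repeats differ was given no RPKM. The submitters' processing notes name Trimmomatic 0.39, STAR, HTSeq, edgeR and the build GRCm38. Strand handling was not given in the sources used here.

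Counts were scaled by TMM in edgeR 4.0.16 (R 4.3.3) and written per 1000000 (CPM). A ratio is that of the scaled counts, with an exact Clopper-Pearson 95% interval (scipy 1.17.1) for counting error only. Genes averaging 1 CPM or more over the 6 libraries were tested. For the size rule a count of 0 was set to 3 counts, which is 0.0984 to 0.108 CPM. The 95% upper limit of a 0 count was 0.121 to 0.133 CPM. The calculation was tested on simulated data. Gene positions are from GENCODE M21 (GRCm38), to which 45143 of 46078 identifiers matched, and promoter sequences from RefSeq (GRCm38.p6). The 10 genes and the other gene lists were chosen with earlier results of these data known. From the other lists, up to 4 genes per list and comparison past the size rule were named, plus any of the caveola, aquaporin, CLIC and EMP lists. A rule for naming the genes most like a member needed one with at least 5 CPM past the size rule, and found 0. Alternatives were scaling by total counts or DESeq2 1.42.0 size factors, a mean of at least 5 CPM or no filter, a 1.5-fold rule, the authors' log2 ratios and the unscratched control.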

Additional observations from a re-analysis of the deposited data

Results flagged for a closer look

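For 4 of the genes, the ratio to the scratched parental library had its 95% counting interval above 1 in some knockout-labelled libraries and below 1 in others. Each library is a single culture, all 4 share that control, and the difference between the libraries was not tested. Hopx had log2 ratios of 0.19 in the Lingo1, 0.23 in the Lingo2, -0.39 in the Lingo3 and -0.22 in the TROY library. Aqp5 had 0.18 in the Lingo1, 0.25 in the Lingo2, 0.70 in the Lingo3 and -0.12 in the TROY library. Pdpn had 0.14 in the Lingo2, 0.083 in the TROY and -0.14 in the Lingo3 library. Clic5 had 0.32 in the Lingo3 and -0.28 in the Lingo2 library. Hopx and Aqp5 were thus both above the scratched parental level in the Lingo1 and Lingo2 libraries, on opposite sides of it in the Lingo3 library and both below it in the TROY library.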

How the results depend on the processing

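The number of the 10 genes past the size rule was the same under total-count scaling, DESeq2 size factors, no filter, the authors' deposited log2 ratios and, for the 4 knockout-labelled libraries, the unscratched control. With a fold of at least 1.5 and an interval beyond 1 it was 1 in the Lingo1 library (Ager, where 11.7% of tested genes passed), 1 in the Lingo2 library (Cav1, 11.5%), 3 in the Lingo3 library (Cav1 and Aqp5 higher, Akap5 lower, 19.3%), 0 in the TROY library (9.09%) and 0 between the parental libraries (0.985%). With a mean of at least 5 CPM it was 0 in the Lingo3 library, because Akap5 is then not tested. The genes with all 4 knockout-labelled libraries above the parental ones numbered 5 (24.2% of tested genes), or 4 with total-count scaling (Ager no longer among them, 18.7%), 5 with DESeq2 size factors (24.1%), 5 without the scratched parental library (30%) and 6 without the Lingo3 library (with Pdpn, 26.9%). In each case 1 gene lay below, where 21.9%, 29.8%, 22.2%, 30% and 23.9% of tested genes did in the same order. Of 50 log2 ratios, 34 left their counting interval under total-count scaling, 1 under DESeq2 size factors and 2 in the authors' table, and of 40 ratios 28 did with the unscratched control. Uncalled values near 0 changed sign for Pdpn between the parental libraries under 3 settings, for Pdpn and Clic5 in the Lingo1 library under total-count scaling, and for Clic5 in the TROY library with the unscratched control. No paired analysis was possible because each group is 1 library. Depth limits Akap5 and Rtkn2 most, and the spread between cultures is unknown.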
